A study of Mus musculus with 2 samples.

Results

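The cells described here were the 470 48h-EpiLCs with the highest level of 5 hypoxia-response genes, out of 9400 cells kept from that library and 20454 kept in the series. For each kept cell (at least 1000 genes detected and at most 10% of its UMIs from mitochondrial genes), the UMIs of Ndufa4l2, Adm, Ankrd37, Pfkfb3 and Plod2 were summed and expressed per 10000 UMIs of the cell, and the highest 5% were chosen by this score as members. They were compared with the 3165 kept cells (33.7%) in which none of the 5 genes had a UMI, called score 0 cells, and 5765 cells lay between. A UMI is a molecular barcode that marks 1 captured RNA molecule.

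The series held 2 droplet libraries of mouse cells, S/LIF ESCs at 0 h and EpiLCs after 48 h of differentiation, and each pooled WT (ROSAmT/mG) with Cnot8 KO cells in equal number. ESCs had been grown in serum and LIF on feeders, and EpiLCs on Matrigel in N2B27 with activin A, bFGF and KSR. The ROSAmT/mG line carries a tdTomato membrane reporter, and Cnot8 encodes a deadenylase, an enzyme that trims the 3′ adenosines of mRNAs within CCR4-NOT. Both libraries carry the strain name ICR and the genotype "wild type" in the labels, although each is a mixture, and oxygen was not stated for either culture.

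With 1 library per time point there was no replicate, so no p-value is given. Every interval below is a 95% interval that covers counting error only, except those of list medians. The interval of a list median is an order-statistic interval and describes the spread over the genes of the list. The 48h-EpiLC library held 163771168 UMIs in 12427 barcodes, of which 75.6% were kept, with a median of 15284 UMIs and 4057 genes per kept cell. The 2 libraries shared 41 barcodes. None of the 470 members and 12 score 0 cells carried a shared barcode. In a level pooled over cells, fewer expressing cells and less RNA per cell cannot be told apart.

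Cells sense oxygen through hypoxia-inducible factors (HIFs). When oxygen is present, the prolyl hydroxylases Egln1, Egln2 and Egln3 mark the HIF alpha subunits Hif1a and Epas1 for destruction through the Vhl ubiquitin ligase. When oxygen is scarce, an alpha subunit pairs with Arnt and binds short DNA elements near genes of glucose uptake, glycolysis, mitochondrial turnover and vessel growth, and the hydroxylase genes Egln1 and Egln3 are themselves among the targets.

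The 5 score genes have different roles. Adm encodes adrenomedullin, a secreted vasodilator peptide. Ndufa4l2 encodes a mitochondrial relative of the respiratory chain protein Ndufa4. Ankrd37 encodes an ankyrin repeat protein, Pfkfb3 a kinase that makes the glycolytic activator fructose-2,6-bisphosphate, and Plod2 a lysyl hydroxylase of collagen. In the GRCm38 annotation, Adm lies at chr7:110627661-110629820, Ndufa4l2 at chr10:127514967-127517154, Ankrd37 at chr8:45996902-46005707, Pfkfb3 at chr2:11471433-11554077 and Plod2 at chr9:92542223-92608428. The end of Ndufa4l2 overlaps the end of Shmt2, which is on the opposite strand.

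Promoter sequence was read beside the expression values, because HIF binds the core letters ACGTG or GCGTG. RefSeq windows of the GRCm38.p6 build, from 250 bases before to 50 after a start site, were searched on both strands. Entries were found for 3 of the 5 score genes, and each of these 3 genes held at least 1 match. Among 34 windows of 24 genes on a list of 30 HIF targets, 52.9% held ACGTG and 79.4% held either motif. Among 29 windows of 18 glycolysis genes the shares were 51.7% and 79.3%. Of all 32851 windows, 19.6% held ACGTG and 43.8% either motif, and of the 7732 windows of genes compared below, 27.5% and 65.9%. The letters CACGTG count once on each strand and are also the E-box of other factors. A match is a description of the letters and was not shown to be a binding site. The stretches below are 80 bases each, 5′ to 3′ on the strand of the gene, taken from the part before the start site where matches were densest, and capitals mark ACGTG or GCGTG on either strand. They cover the score genes with an entry and 5 genes whose levels are given below.
Adm (chr7:110627567-110627646, +): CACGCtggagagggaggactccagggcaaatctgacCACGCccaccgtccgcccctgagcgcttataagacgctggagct
Ankrd37 (chr8:45999926-46000005, -): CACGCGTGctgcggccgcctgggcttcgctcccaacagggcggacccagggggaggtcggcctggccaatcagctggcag
Pfkfb3 (chr2:11502133-11502212, -): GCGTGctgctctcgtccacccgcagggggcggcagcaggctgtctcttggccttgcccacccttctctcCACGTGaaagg
Bnip3 (chr7:138909535-138909614, -): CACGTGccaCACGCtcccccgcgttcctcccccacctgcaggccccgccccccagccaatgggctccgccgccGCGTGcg
Ddit4 (chr10:59951878-59951957, -): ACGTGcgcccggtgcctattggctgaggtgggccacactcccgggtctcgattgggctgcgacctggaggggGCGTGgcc
Ero1l (chr14:45318621-45318700, -): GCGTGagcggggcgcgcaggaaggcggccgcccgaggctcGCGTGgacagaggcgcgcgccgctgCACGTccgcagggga
Ldha (chr7:46845724-46845803, +): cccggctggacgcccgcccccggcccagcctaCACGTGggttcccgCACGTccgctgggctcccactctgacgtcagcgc
Pgk1 (chrX:106186950-106187029, +): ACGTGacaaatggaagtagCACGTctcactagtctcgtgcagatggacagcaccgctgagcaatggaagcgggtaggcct
The annotation places no exon in any of these 8 stretches. Those of Bnip3, Ddit4 and Pgk1 lie outside annotated genes, those of Ankrd37, Pfkfb3, Ero1l and Ldha lie in introns of longer transcripts of the same genes, and that of Adm lies inside Gm28863 on the opposite strand. The stretch of Ankrd37 also lies inside Lrp2bp on the opposite strand. Pfkfb3 and Ldha each had a further stretch at another start site that is not printed, and that of Pfkfb3 overlaps an exon of the gene.

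The score formed a continuous slope with no gap at the threshold. Its median over all kept cells was 0.670, its 90th percentile 2.57 and its highest value 13.96, and the members had a median of 4.76. The lowest member had a score of 3.55999 from 5 UMIs among 14045. The highest cell outside had 3.55948 from 5 UMIs among 14047. Within 10% of the threshold, 85 cells lay above and 125 below, so the members are a range of the score and not a type of cell. A member carried a median of 6 score-gene UMIs, between 1 and 24. Of the members, 439 (93.4%) had UMIs of 2 or more score genes, against 43.1% of the cells between, and 28 had all 5. Members were chosen for many score-gene UMIs, so this difference follows at least in part from the rule. The 31 members with a single score gene were shallow, with a median of 6572 UMIs.

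**Figure D1:**
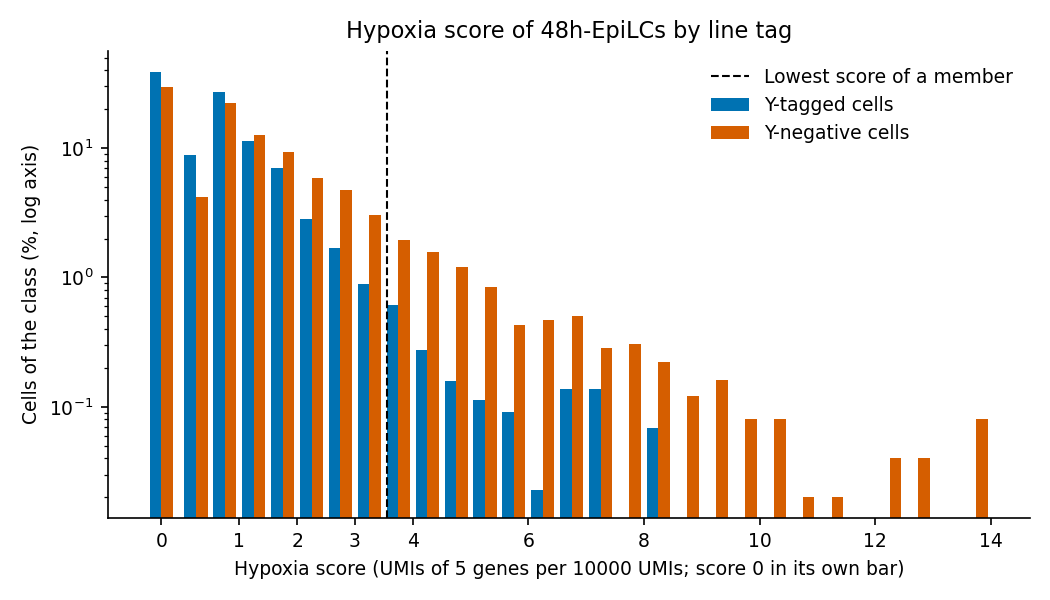
Share of cells (%, log axis) in each interval of the hypoxia score (UMIs of 5 genes per 10000 UMIs), for cells with a Y-linked UMI and no tdTomato UMI (Y-tagged) and for cells with no Y-linked UMI (Y-negative). The dashed line is the lowest score of a member, 3.56, beyond which 1.5% of Y-tagged and 8.13% of Y-negative cells lay.

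The levels of the score genes in the members follow from the choice and are given as a description. Pooled over the 470 members and scaled to counts per 1000000 UMIs (CPM), Adm stood at 154 CPM, Ankrd37 at 135, Plod2 at 120, Ndufa4l2 at 78.7 and Pfkfb3 at 36.3. In the cells between, the same genes stood at 22.1, 29.7, 43.3, 10.4 and 9.25 CPM. Adm gave 29.3% of the members' score-gene UMIs, and Pfkfb3 6.93%. Adm was detected in 75.1% of members, Plod2 in 73.6%, Ankrd37 in 69.1%, Ndufa4l2 in 52.8% and Pfkfb3 in 33.6%. In the score 0 cells all 5 were at 0 by the rule, and no cell class of this library is known to lack these genes, so a background share from free RNA was not available.

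When each score gene was left out in turn and cells were ranked by the other 4, the gene left out was still higher in the top 5% than in cells without a UMI of the other 4. Ndufa4l2 showed the widest gap, 46.5 CPM (41.2 to 52.2) in 470 top cells against 4.54 CPM (3.97 to 5.18) in 3366 cells, a ratio of 10.2 (8.56 to 12.2). Adm was 7.02-fold higher (6.22 to 7.92), Ankrd37 4.33-fold (3.86 to 4.84), Pfkfb3 4.30-fold (3.47 to 5.31) and Plod2 2.40-fold (2.16 to 2.66). None of these intervals reached 1. Detection went the same way, with Ndufa4l2 found in 34.9% of the top cells and in 5.97% of those at 0 for the other 4, and Plod2 in 52.8% and 33.7%.

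**Figure D2:**
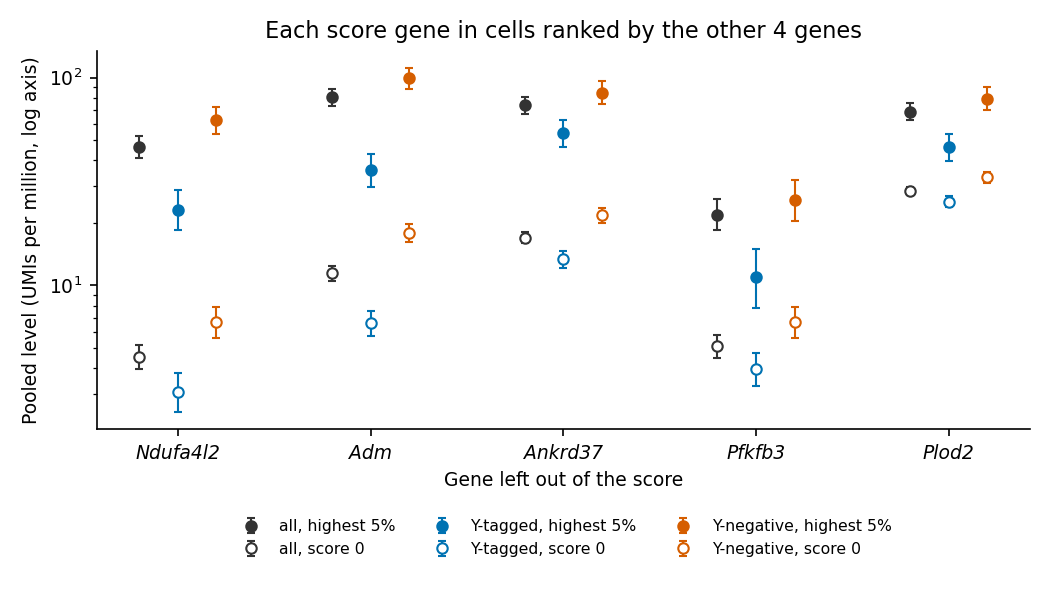
Pooled level (CPM, log axis) of each score gene in the top 5% of cells ranked by the other 4 genes (filled) and in cells at 0 for those 4 (open), for all cells and within each tag class, with exact Poisson intervals. Every filled point lies above its open partner, from 1.82-fold for Plod2 in Y-tagged cells to 10.2-fold for Ndufa4l2 in all cells.

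The choice of single cells carried much counting error. Each cell's UMIs were divided at random into 2 sets of equal chance and the top 5% was taken in each. Of 470 cells chosen in set 1, 159 (33.8%) were also chosen in set 2, and 24.7% had no score-gene UMI in set 2. Pooled, the cells chosen in set 1 had a score of 6.12 in set 1 and of 3.37 in set 2, while cells at 0 in set 1 had 0.655 in set 2. The gap in the set that did not choose the cells was thus 5.14-fold.

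Members were somewhat shallower than the cells they were compared with. Their median was 12550.5 UMIs against 14155 in score 0 cells and 16282 in the cells between, and the median of genes detected was 3618 against 3906 in score 0 cells. After thinning each cell to 5000 UMIs, which left out 25 members and 141 score 0 cells, the medians were 2075 and 2118 genes. Mitochondrial UMIs made up a median of 3.03% in members and 3.14% in score 0 cells, and ribosomal protein UMIs 24.0% and 22.1%.

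The line tags of both groups differed more than any of these. Ddx3y and Eif2s3y are Y-linked genes, and cells with a tdTomato UMI seldom carried them. A UMI of either Y-linked gene was found in 14.7% of members (11.6 to 18.2, Clopper-Pearson) and in 54.2% of score 0 cells (52.5 to 56.0). After thinning to 5000 UMIs the shares were 5.84% and 29.2%. A tdTomato UMI was found in 7.45% of members (5.24 to 10.2) and in 2.81% of score 0 cells (2.26 to 3.45), and in 2.47% and 0.827% after thinning. The share of members with a Y-linked UMI was thus no higher than the 16.8% (13.5 to 20.6) found in the 452 cells with a tdTomato UMI, whose median depth was 16518.5 UMIs.

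Pooled, Ddx3y and Eif2s3y together stood at 16.9 CPM in members and at 76.9 in score 0 cells, 4.56-fold lower, and at 15.6 CPM in cells with a tdTomato UMI. Ddx3y alone stood at 6.49 CPM against 36.1, and Eif2s3y at 10.4 against 40.8. tdTomato stood at 6.004 CPM (4.23 to 8.28) in members and 1.98 (1.60 to 2.43) in score 0 cells. Read from the side of the lines, members made up 1.5% (1.16 to 1.91) of the 4394 Y-tagged cells, 8.13% (7.39 to 8.93) of the 4930 Y-negative cells and 7.74% (5.45 to 10.6) of the 452 cells with a tdTomato UMI. The labels name tdTomato as the tag of WT cells and do not mention the Y-linked genes. A tdTomato UMI was found in only 4.81% of the 9400 kept cells, although WT cells were pooled in equal number. Neither tag was found in 48.4%. Lack of a tdTomato UMI thus does not give the line of a cell, and Y-tagged cells lack it by definition. Their genotype is an inference from the rarity of Y-linked UMIs in cells with a tdTomato UMI. Cnot8 itself checks nothing here, since a 3′ tag can persist after an edit upstream. It stood at 51.4 CPM in members and 61.7 in score 0 cells.

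The score genes differed between the tag classes over all kept cells, so in the pooled contrast the line mixture and the score cannot be told apart. Adm stood at 30.7 CPM in Y-negative and 11.7 in Y-tagged cells, a log2 ratio of 1.39 (1.29 to 1.505), and Ndufa4l2 at 14.6 and 5.86, a log2 ratio of 1.32. The log2 ratio was 0.87 for Pfkfb3, 0.68 for Ankrd37 and 0.43 for Plod2. For this reason each comparison below was repeated among Y-tagged cells (66 members, 1701 score 0 cells) and among Y-negative cells (401 members, 1449 score 0 cells). The Y-negative class still mixes lines: Ipp, an autosomal gene named here because its level separated the tag classes, stood at 125 CPM in Y-tagged cells and 18.2 in tdTomato cells with no Y-linked UMI, and within the Y-negative class at 13.5 CPM in members and 55.1 in score 0 cells. In Y-tagged members Ipp stood at 101 CPM, against 137 in Y-tagged score 0 cells and 72.3 in cells that carried both tags.

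Among 7579 genes of at least 10 CPM over all kept cells, score genes left out, 242 (3.19%) were at least 1.5-fold higher in members than in score 0 cells on the log2(CPM + 1) scale, and 232 (3.06%) were at least 1.5-fold lower. The median of all genes was -0.05. Without the members' own UMIs, 12 of the 7579 genes would lie under 10 CPM, and 235 of the 242 higher genes remain. Of the higher and lower genes, 110 genes (1.45%) were past 1.5-fold higher within both tag classes too, and 45 (0.594%) past 1.5-fold lower. Within Y-tagged cells 4.78% of genes were higher and 4.97% lower, and within Y-negative cells 2.31% and 1.53%. These shares are the background for the counts of each gene list below.

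HIF target genes outside the score were higher in members. Of 30 on the list, 19 were at or above 10 CPM over all kept cells, and 14 of those were at least 1.5-fold higher and none lower, against 3.19% of all genes higher. The median log2 ratio of the 19 was 1.33, with an order-statistic interval of 0.58 to 1.83 over the genes. It was 1.33 within Y-tagged cells, 1.11 within Y-negative cells and 1.32 among cells with a tdTomato UMI (35 members, 89 score 0 cells). With all cells thinned to 5000 UMIs, where 1002 cells entered as members, it was 0.82 in all cells, 0.36 (0.22 to 0.50) within Y-tagged and 0.79 within Y-negative cells. None of the 19 reached 10 CPM through the members alone. The same 14 genes were past 1.5-fold in both tag classes. The exceptions in all cells were Bnip3l at a ratio of 1.501 (1.41 to 1.60, just short on the log2 scale), Jmjd6 at 1.29, Mxi1 at 1.16, Rragd at 1.13 and Loxl2 at 0.856.

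The highest ratio among the 19 belonged to Bhlhe40, a repressor of the basic helix-loop-helix family, with 54.0 CPM in members and 7.66 in score 0 cells, 7.05-fold higher (6.05 to 8.21). Ddit4, an inhibitor of mTORC1, stood at 197 and 39.1 CPM, 5.03-fold higher (4.67 to 5.41). Ero1l, an oxidase of the endoplasmic reticulum that serves disulfide formation, was 4.06-fold higher (3.69 to 4.45). Within Y-tagged cells the ratios of these 3 genes were 7.07, 3.56 and 4.08, and within Y-negative cells 5.87, 4.22 and 3.61.

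Genes of mitochondrial turnover and metabolism were higher as well. Bnip3, a receptor for the autophagic removal of mitochondria, stood at 246 CPM in members and 65.9 in score 0 cells, 3.74-fold higher (3.51 to 3.98). Fam162a, a mitochondrial protein, stood at 487 and 158 CPM, 3.09-fold higher, and Higd1a, a respiratory chain assembly factor, at 465 and 232 CPM, 2.01-fold higher. Pdk1, the kinase that shuts off pyruvate dehydrogenase, was 2.04-fold higher (1.89 to 2.21), Ak4, an adenylate kinase of mitochondria, 2.67-fold and Hilpda, an inhibitor of triglyceride breakdown, 2.00-fold.

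The 11 HIF targets under 10 CPM over all kept cells are described by their counts. Their values here are from the pooled contrast, in which the line mixture and the score cannot be told apart. Of these, 9 had a ratio whose interval lay above 1. Ndrg1, a stress-response gene, stood at 44.8 CPM in members and 4.33 in score 0 cells, 10.4-fold higher (8.60 to 12.5). Rora, a nuclear receptor, stood at 8.76 and 1.29 CPM, and Cox4i2, a hypoxia isoform of a cytochrome oxidase subunit, at 4.54 and 0.969. Vegfa, the vessel growth factor, stood at 13.1 and 3.81 CPM, 3.45-fold higher (2.62 to 4.51). Car9, the carbonic anhydrase, stood at 1.14 and 1.74 CPM and Selenbp1 at 0.487 and 1.29, with intervals that held 1. Over all 30 genes the median log2 ratio was 1.09. With a floor of 1 CPM in place of 10, the median of the list was 1.15 within Y-tagged and 0.998 within Y-negative cells.

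In the oxygen-sensing pathway itself the hydroxylases that are HIF targets stood apart from the rest. Of 7 measured genes, 2 were higher and 1 lower in all cells. Within Y-tagged cells 2 were higher and 2 lower, with a lowest log2 ratio of -1.05, and the lower genes there did not include Epas1. Within Y-negative cells 2 were higher and none lower. Egln1 stood at 111 CPM in members and 31.9 in score 0 cells, 3.48-fold higher (3.17 to 3.81), and Egln3 at 101 and 30.9 CPM, 3.27-fold higher (2.97 to 3.60). Egln2 stood at 37.2 and 43.3 CPM. Of the alpha subunits, Hif1a mRNA stood at 54.8 CPM in members and 76.2 in score 0 cells, 1.39-fold lower (1.24 to 1.56), and Epas1 at 8.44 and 13.7 CPM. The log2 ratio of Epas1, -0.64, passed 1.5-fold in all cells but stood at -0.30 within Y-tagged and -0.34 within Y-negative cells. Hif3a, another alpha subunit and under 10 CPM over all kept cells, stood at 4.54 and 2.65 CPM, 1.72-fold higher (1.096 to 2.60). Arnt, their partner, stood at 21.3 and 18.4 CPM.

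Glycolysis genes were also higher in members, at smaller ratios and far greater levels. All 19 on the list were measured, and in all cells 13 were at least 1.5-fold higher and none lower. The median log2 ratio was 0.79 (0.45 to 1.07), with 0.68 within Y-tagged cells, 0.74 within Y-negative cells and 0.51 among cells with a tdTomato UMI. In 11 genes the ratio passed 1.5-fold in both tag classes. Within Y-tagged cells 1 gene was at least 1.5-fold lower, and among cells with a tdTomato UMI 8 were higher and 2 lower. Summed over the list, glycolysis mRNA stood at 16186 CPM in members and 9636 in score 0 cells.

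The ratio followed the steps of the pathway unevenly. Slc2a1, the glucose transporter GLUT1, stood at 443 and 145 CPM, 3.06-fold higher (2.92 to 3.20), and the related transporter Slc2a3 at 253 and 106 CPM, 2.40-fold higher. Hk2, a hexokinase that phosphorylates glucose, was 2.11-fold higher (2.01 to 2.22), while its paralogue Hk1 stood at 12.3 and 17.5 CPM. Likewise Pfkl, a phosphofructokinase, was 2.08-fold higher, while Pfkm stood at 21.4 and 28.7 CPM. Aldoc, an aldolase, showed the highest ratio of the list, 33.6 CPM against 9.30, 3.61-fold (3.05 to 4.27), at a level far under that of Aldoa, which was 1.73-fold higher. Counts of genes are not scaled to length here, but the 3′ protocol counts 1 tag per molecule.

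Pgk1, which makes the first ATP of glycolysis, stood at 1670.2 CPM in members and 636 in score 0 cells, 2.63-fold higher (2.57 to 2.69). Ldha, the lactate dehydrogenase subunit, was 2.05-fold higher (2.01 to 2.10). Gapdh was 1.37-fold higher and Pkm 1.36-fold higher, short of 1.5-fold. Of the monocarboxylate exporters, Slc16a3 was 1.51-fold higher (1.44 to 1.59) and Slc16a1 stood at 55.8 and 59.2 CPM.

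**Figure D3:**
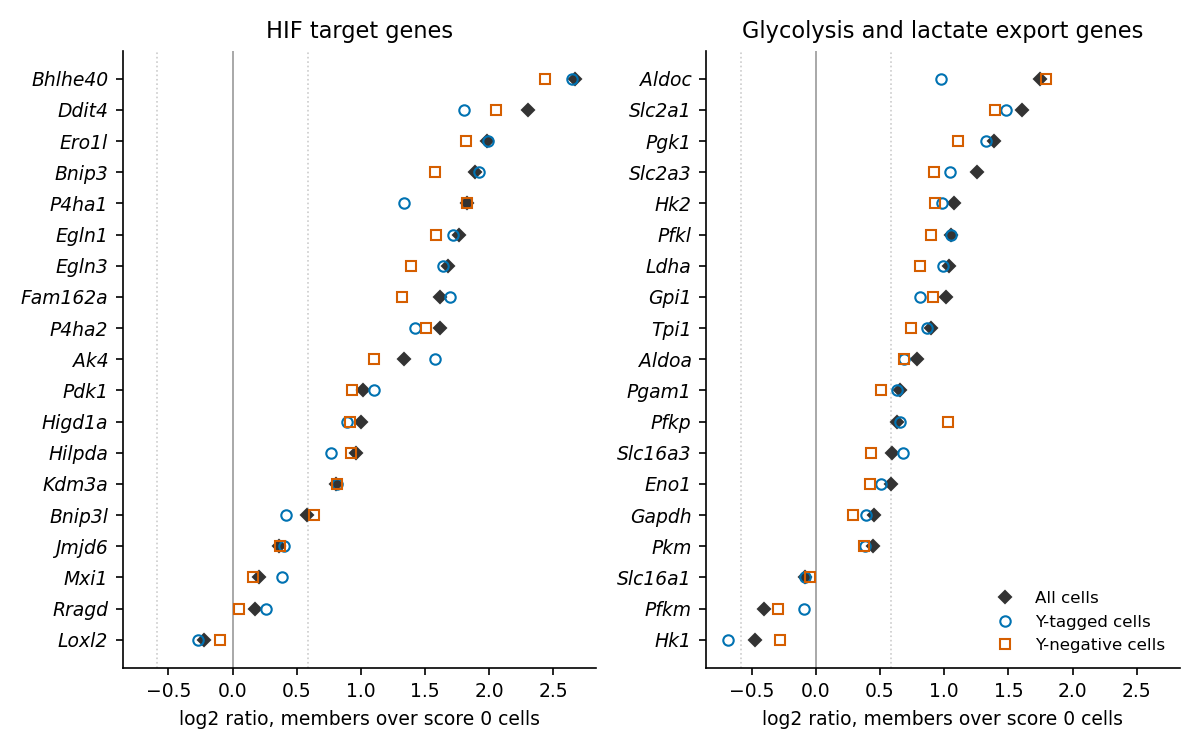
Log2 ratio of CPM + 1 in members over score 0 cells for the measured HIF target genes and glycolysis genes, in all cells and within each tag class, with dotted lines at 1.5-fold. The order of genes is by the ratio in all cells, from Bhlhe40 (7.05-fold) and Aldoc (3.61-fold) at the top, and the tag classes lie on the same side of 0 for each gene past 1.5-fold in all cells.

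The level of HIF targets followed the score step by step. Summed over the 19 measured genes, it was 1135 CPM at score 0, 1264 from above 0 to 1, 1483 from 1 to 2, 1944 from 2 to the threshold, 2391 in the lower 235 members and 2788 in the upper 235. Within Y-tagged cells the sum went from 1058 (1046 to 1071) at score 0 to 2458 (2309 to 2615) in the upper members, who were only 28 cells. Within Y-negative cells it went from 1244 (1228 to 1260) to 2846 (2779 to 2914) in 205 cells. Depth varied along the way, from a median of 14155 UMIs at score 0 to 17310 in the next interval and 11869 in the upper members, and its part in the slope was not tested.

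**Figure D4:**
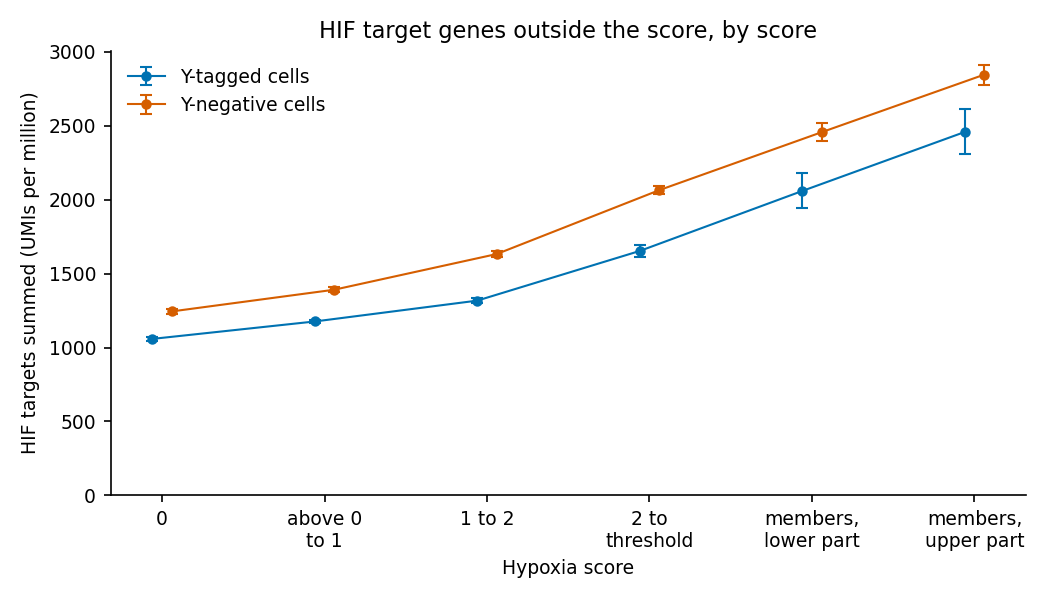
Summed level (CPM) of the 19 measured HIF target genes outside the score, in intervals of the hypoxia score for Y-tagged and Y-negative cells, with exact Poisson intervals. Both classes are higher in every next interval, and the Y-negative class lies above the Y-tagged class throughout.

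The sum could also be read cell by cell. Members had a median of 24.5 HIF-target UMIs per 10000, with 5th and 95th percentiles of 12.8 and 41.7, and score 0 cells a median of 10.8, with 5.56 and 20.5. Of the members, 97.2% lay above the median of score 0 cells and 68.3% above their 95th percentile. Y-tagged members had a median of 20.5 and Y-negative members of 25.1. The 31 members with a single score gene had a median of 20.7, and the rest 24.6.

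Other metabolic groups did not share this pattern. Of 24 nuclear genes of oxidative phosphorylation, none passed 1.5-fold in either direction, with a median log2 ratio of 0.07 (-0.05 to 0.14). Of 13 mitochondrially encoded genes, mt-Cytb alone was lower, with a log2 ratio of -0.65 in all cells and -0.37 within Y-tagged cells, and the median was -0.13. Of the 7 measured genes of collagen hydroxylation and crosslinking, P4ha1 and P4ha2, the alpha subunits of collagen prolyl hydroxylase, were 3.72-fold (3.26 to 4.23) and 3.34-fold (2.75 to 4.04) higher. The other subunit, P4hb, stood at 259 and 207 CPM, and the lysyl hydroxylase Plod3 at 19.8 and 22.9. Of 14 genes of cholesterol synthesis, Msmo1 alone was past 1.5-fold, at 1.52 in all cells and 1.46 within Y-tagged cells.

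Genes of the amino acid stress response were partly higher. Of 14 measured, 5 were at least 1.5-fold higher and none lower, with a median log2 ratio of 0.47, and 4 of them passed in both tag classes. Stc2, a secreted glycoprotein, stood at 26.8 and 6.33 CPM, 4.23-fold higher (3.47 to 5.14). Stc2 reached the floor of 10 CPM only through the members, with 9.50 CPM over the other kept cells, and without it 4 of 13 genes were higher, with a median of 0.43. Chac1, a glutathione-degrading enzyme, stood at 32.5 and 8.68 CPM, 3.74-fold higher (3.14 to 4.44). Trib3, a pseudokinase, was 2.14-fold and Asns, the asparagine synthetase, 1.78-fold higher. Atf4, the factor at the head of this response, stood at 246 and 168 CPM, 1.46-fold higher (1.38 to 1.55). Of 11 measured p53 targets, none passed 1.5-fold in all cells. Within Y-tagged cells 1 was higher, within Y-negative cells 1 and among cells with a tdTomato UMI 3, and none was lower.

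Immediate early genes, which respond to growth signals and to cell dissociation, were also partly higher, 4 of 9 measured, and 3 of them in both tag classes. The median log2 ratio of the list was 0.55 in all cells, 0.57 within Y-tagged and 0.28 within Y-negative cells. Ier3, an early response gene, stood at 237 and 34.0 CPM, 6.99-fold higher (6.50 to 7.51). Dusp1, a MAP kinase phosphatase, was 2.12-fold higher, Jun 1.95-fold and Fos 1.71-fold, with Fos at 1.23-fold within Y-negative cells. Egr1 stood at 117 and 89.7 CPM and Fosb at 22.2 and 23.7. Of 5 measured heat shock genes, Dnajb1 was 1.52-fold lower in all cells and 1.09-fold lower within Y-tagged cells.

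Most pluripotency genes differed little between members and score 0 cells. None of 6 formative genes passed 1.5-fold in all cells, but 2, Otx2 and Lef1, were past it within Y-tagged cells, against 4.78% of all genes, and none within Y-negative cells. Among cells with a tdTomato UMI, 3 were higher and 1 lower. Pou3f1 stood at 514 and 378 CPM, Dnmt3b at 507 and 495, Otx2 at 59.6 and 45.2 and Fgf5 at 51.6 and 43.1. None of the 4 core genes did either, with Pou5f1 at 108 and 88.0 CPM. Of 6 measured naive genes, 2 were at least 1.5-fold lower and none higher, against 3.06% of all genes lower. Within Y-tagged cells 1 was lower, and within Y-negative cells 2. Summed over all 13 naive genes of the list, the level was 215 CPM in members and 316 in score 0 cells. Zfp42 stood at 37.6 and 85.4 CPM, 2.27-fold lower (1.99 to 2.60), and Dppa3 at 16.1 and 42.5 CPM, 2.65-fold lower (2.16 to 3.27). Zfp42 was 1.40-fold lower within Y-tagged cells and Dppa3 2.00-fold lower. Of 8 Nodal pathway genes, Lefty2, a Nodal inhibitor, was 1.63-fold higher (1.48 to 1.78), while Nodal stood at 41.7 and 61.0 CPM. Lefty2 passed 1.5-fold in both tag classes, but its log2 ratio was 0.02 among cells with a tdTomato UMI. Of the 8 genes, 2 were higher and 1 lower within Y-tagged cells, and none higher and 3 lower among tdTomato cells.

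Cell cycle genes lay slightly lower in the pooled contrast and closer to 0 within the tag classes. Of 14 S phase genes, Ccne1 alone, encoding cyclin E, passed 1.5-fold, at 208 and 318 CPM, with log2 ratios of -0.55 within Y-tagged and -0.47 within Y-negative cells. The median log2 ratio of the list was -0.24 in all cells, -0.06 within Y-tagged, -0.17 within Y-negative and -0.04 among tdTomato cells. None of 14 G2/M genes passed in all cells, where the median was -0.30, against -0.05 for all genes. It was -0.12 within Y-tagged, -0.18 within Y-negative and 0.09 among tdTomato cells.

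Genes of the contractile cytoskeleton were lower in members, 4 of 7 measured and none higher, with a median log2 ratio of -0.66. Acta2, smooth muscle actin, stood at 2.76 and 14.7 CPM, 5.32-fold lower (3.30 to 9.19), Tagln, an actin-binding protein, at 15.6 and 49.4 CPM, 3.17-fold lower (2.59 to 3.93), and Myl9, a myosin light chain, at 13.5 and 42.3 CPM. Within Y-tagged cells Acta2 was 2.66-fold and Tagln 2.36-fold lower, and within Y-negative cells 3.89-fold and 2.80-fold. Mt2, a metallothionein, was lower past 1.5-fold too, also within both tag classes, but its log2 ratio was -0.13 among cells with a tdTomato UMI. Of 85 ribosomal protein genes, 4 were past 1.5-fold higher in all cells, none within Y-negative cells, and the median was 0.08.

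**Figure D5:**
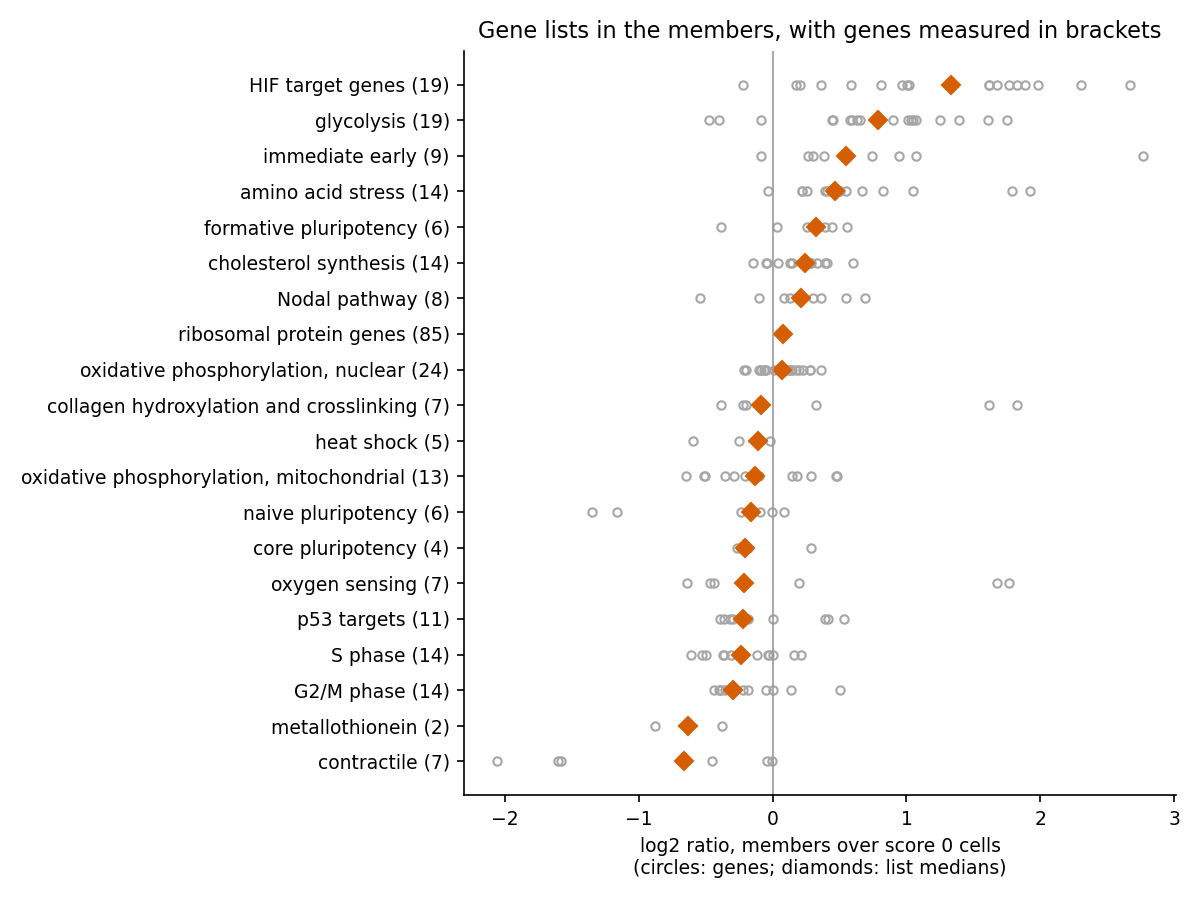
Log2 ratio of CPM + 1 in members over score 0 cells for each gene list with at least 2 measured genes (circles, genes; diamonds, medians), ordered by median, with the number measured in brackets. Single ribosomal protein genes are not drawn. HIF targets (1.33) and glycolysis (0.79) have the highest medians and contractile genes (-0.66) the lowest.

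Of the 15 genes with the largest ratio upward that also passed 1.5-fold in both tag classes, 7 were HIF targets of the list, 2 amino acid stress genes (1 of them Stc2, which reached the floor only through the members), 1 a glycolysis gene and 1 an immediate early gene. The other 4 were in no list. Anxa2, an annexin that binds membranes and calcium, stood at 71.6 and 20.4 CPM, 3.50-fold higher (3.12 to 3.93). Pgm1, a phosphoglucomutase, was 3.37-fold higher (2.98 to 3.80), Espn, encoding an actin-bundling protein, 3.28-fold and Smtnl2, a smoothelin-like gene, 3.35-fold. Smtnl2 was the only gene of the 15 with a promoter entry and neither HIF motif in the bases before the start site.

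The 10 genes with the largest ratio downward were Gm11361, BC023719, Acta2, Gm10260, Apoc2, A3galt2, Nrros, Nr1h5, Rhox6 and Tagln. Apart from Acta2 and Tagln, none is on a list. Rhox6, an X-linked homeobox gene, stood at 11.5 and 40.5 CPM, 3.52-fold lower (2.78 to 4.52), and Nr1h5, a nuclear receptor, at 19.3 and 66.9 CPM, 3.47-fold lower (2.89 to 4.20). Within Y-tagged cells these ratios were 2.43 and 1.78. All 10 genes passed 1.5-fold in both tag classes, but the Y-negative class still mixes lines. Among cells with a tdTomato UMI (35 members, 89 score 0 cells), the log2 ratio was 0.53 for Apoc2, -0.18 for Nr1h5 and -0.52 for Gm11361. There it was -0.67 for Nrros, -1.06 for BC023719, -1.07 for Rhox6 and -1.13 for Gm10260. For A3galt2, Tagln and Acta2 it was -1.94, -2.04 and -3.86. Gm11361 and Gm10260 are annotated as retrogenes whose reads could belong to near-identical copies, and BC023719 overlaps Gm7030 on the opposite strand, so their values are uncertain.

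Markers of other cell types each lay under 10 CPM over all kept cells. Of 7 feeder fibroblast markers, the sum was 5.84 CPM in members and 9.60 in score 0 cells, and 3 of them were at 0 in members, which allows up to 0.487 CPM each. Primitive endoderm markers summed to 4.06 and 5.23 CPM and mesendoderm markers to 12.7 and 9.73. Markers of 2-cell-like cells, a rare state of ESC cultures, summed to 17.0 CPM in members and 5.12 in score 0 cells, and their part in the results was not tested.

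The same rule was applied to the S/LIF ESC library to see whether these genes varied together there. Of 11054 kept ESCs, 553 formed the top 5%, with a threshold of 3.47, and 46.5% had a score of 0. The median log2 ratio was 0.75 for 20 HIF targets, 11 of them past 1.5-fold, against 2.49% of the 7627 genes measured in ESCs, and 0.66 for 18 glycolysis genes, 10 of them past 1.5-fold. Bnip3 had a log2 ratio of 1.84 in ESCs, Ddit4 of 2.39 and Pgk1 of 1.16. Of 12 measured amino acid stress genes none passed 1.5-fold higher in ESCs, but Stc2 and Chac1, under 10 CPM there, stood at 23.7 and 4.42 CPM, 5.36-fold higher (4.33 to 6.61), and at 11.3 and 4.95 CPM, 2.27-fold higher (1.72 to 2.98). A Y-linked UMI was found in 22.6% of these top ESCs and in 47.9% of ESCs at score 0. The ESC ratios were pooled over both lines and were not repeated within tag classes. In them the line mixture and the score cannot be told apart. Leaving out 117 ESCs with at least 10 UMIs of feeder fibroblast markers, 6 of them in the top group, gave 0.80 for HIF targets and 0.66 for glycolysis. The difference between the libraries was not tested.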

How the data were processed

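Gene by cell matrices of UMI counts were deposited for 2 libraries. Per the labels and the methods, the authors built them with the Chromium Single Cell 3′ protocol and Cell Ranger 3.0.2 on mm10, with the tdTomato coding sequence added, and analysed them in Seurat 4. Counts were used as deposited. Members, gene lists and comparisons were chosen with earlier results of these data known. UMIs were summed over the cells of a group and divided by the group's total (CPM), and log2 ratios used CPM + 1. A ratio printed as a fold is the plain ratio of CPM. Intervals (95%) were exact: Poisson for levels, conditional binomial for ratios and Clopper-Pearson for shares, and these cover counting error only. Intervals of list medians were order-statistic intervals and describe the spread over genes. Genes under 10 CPM over all kept cells were left out of counts over genes. A count of 0 allows up to 3 counts of the group total. No test was run, because cells of 1 library do not replicate a condition.

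Genes named were the score genes, the line tags and Cnot8, up to 6 per list by level or ratio, and the 15 upward and 10 downward genes with the largest ratio that passed 1.5-fold in both tag classes. Ipp and several list genes beyond those 6 were named after their values were seen. No doublet caller was run; instead, cells with both tags or in the top 10% by UMIs (982 cells, 14 of them members) were set aside as an alternative. Seurat was not used here. Positions came from GENCODE M21 (GRCm38), in which 99.8% of 32286 features were found by identifier. Promoter sequences came from RefSeq (GRCm38.p6). Python 3.11.15, numpy 2.4.6, scipy 1.17.1, pandas 2.3.3 and matplotlib 3.10.9 were used, with edgeR 4.0.16 in R 4.3.3 only for TMM scaling factors as an alternative. The counting steps were tested on simulated data.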

Additional observations from a re-analysis of the deposited data

How the results depend on the processing

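The contrast was recomputed under 164 combinations of result and alternative. Of these, 142 stayed within the interval of the reported value or within 1.5 times the count. For list medians this is the wide interval over genes, so a fall of the HIF median from 1.33 to 0.82 stayed inside it. Some alternatives could not move a result. The pseudocount and the filter on CPM do not enter the Y-linked ratio, the tdTomato ratio or the ratio of median UMIs. The 142 is thus a tally and not a measure of robustness. The median log2 ratio of HIF targets ranged from 0.82 to 1.41, that of glycolysis from 0.50 to 0.89, and that of HIF targets within Y-negative cells from 0.79 to 1.32, the last among cells with a tdTomato UMI. Some of the alternatives, those on cells with a tdTomato UMI, without an Ipp UMI, within a tag class or without cells under 5000 UMIs, were chosen after seeing the data.

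Counts of genes depended most on the choices. Genes at least 1.5-fold higher numbered 242, and 154 with the top 10% as members, 73 with cells thinned to 5000 UMIs, 142 against all other cells, 140 with members taken within line tags and 720 with a filter at 1 CPM. Genes at least 1.5-fold lower numbered 232, and under the same alternatives 141, 78, 129, 51 and 654, with 389 for the top 2.5% and 127 for a score without Adm. Thinning ties many cells at few UMIs, so 1002 cells entered as members, and within Y-tagged cells it gave a HIF median of 0.36 in place of 1.33.

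The log2 ratio of Ddx3y and Eif2s3y together was -2.19, and -1.80 with the top 10%, -1.56 without Adm, -1.05 thinned, -1.88 against all other cells and -0.32 with members taken within line tags, which also took that of tdTomato from 1.60 to 0.74. The ratio of median UMIs, members over score 0 cells, was 0.887, and 0.813 against all other cells. It was 1 after thinning and 1.00 after weighting score 0 cells to the depth of members, both by construction. No paired analysis was possible because each time point has 1 library and the labels give no replicate numbers. Depth limits the choice of single cells, since a member held a median of 6 score-gene UMIs.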

Other observations

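The pairs of score genes met in the same cells to different degrees. Of 1177 kept cells with an Ndufa4l2 UMI, 41.3% also had an Adm UMI, against 18.2% of cells without Ndufa4l2, and 192 of the cells with both were members. For Ankrd37 and Pfkfb3, 15.8% of cells with the first had the second, against 9.08% of cells without it. Deeper cells have more UMIs of every gene, and the part of depth in these shares was not tested.

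Vldlr, a lipoprotein receptor on the amino acid stress list, lay under 10 CPM over all kept cells, at 11.2 CPM in members and 1.68 in score 0 cells, 6.67-fold higher (4.75 to 9.34). Esrrb and Tcl1, naive pluripotency genes under the same floor, stood at 3.08 and 10.2 CPM and at 0.325 and 2.497 CPM. The values of these 3 genes are from the pooled contrast, in which the line mixture and the score cannot be told apart.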
